A study of Mus musculus with 8 samples.

Results

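Globins are small proteins that bind oxygen through heme, and the genes described here are 7 mouse globins together with Alas2, the red cell form of the enzyme that starts heme synthesis. The 8 genes are Cygb, Ngb, Mb, Hba-a1, Hba-a2, Hbb-bs, Hbb-bt and Alas2, of 46078 gene identifiers counted in each library. Cygb was selected on its rise in this comparison. Its difference between the groups is therefore a description and carries no test. The other members were chosen by gene family, with earlier results of these data known, and were read from the fit over all genes.

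Messenger RNA was sequenced from stroke infarcts of 8 aged wild type C57BL/6J mice, male and 18 months old. Every animal had DH stroke, that is, occlusion of the middle cerebral artery at a distal site followed by a period of breathing air low in oxygen. Starting 1 week later, the vehicle group (n = 4) was injected subcutaneously with sterile PBS and the HPβCD group (n = 4) with 4 g/kg of 2-hydroxypropyl-β-cyclodextrin, 3 times per week for 6 weeks. HPβCD is a ring-shaped sugar that takes up cholesterol and other lipids. Infarcts were dissected at 7 weeks after stroke, from mice that had been bled and perfused with saline, and were cut by eye, so that neither residual blood nor adjoining brain was fixed by the procedure. The libraries held 16.6 M to 32.9 M gene counts. Levels are given as CPM, each count divided by the size of its library after a TMM scaling factor has corrected that size.

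Hemoglobin is a tetramer of alpha and beta chains and carries oxygen inside red cells. Adult mice make the alpha chain from Hba-a1 and Hba-a2 and, in this strain, the beta chain from Hbb-bs and Hbb-bt. Myoglobin (Mb) stores oxygen in heart and skeletal muscle, and neuroglobin (Ngb) is made mainly by neurons. Cytoglobin (Cygb) is found in fibroblasts, pericyte-like cells and some neurons, where it consumes nitric oxide and scavenges reactive oxygen species. A bulk library mixes all of these cells, and fewer cells of a type and less RNA per cell cannot be told apart.

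The hemoglobin genes come in near-identical copies, and the stretches below are shown because they limit what the counts can resolve. In the GENCODE M21 transcripts on GRCm38, the coding sequences of Hbb-bs and Hbb-bt are both 444 bases long and are 99.77% identical. They differ at 1 base, C417T, counted from the start codon with the Hbb-bs base written before the position. Hba-a1 and Hba-a2 have coding sequences of 429 bases and also differ at 1 base, C381T, with the Hba-a1 base before the position. Each line gives 120 coding bases, 5′ to 3′ on the strand of the gene, with the differing base in capitals.
Hbb-bs: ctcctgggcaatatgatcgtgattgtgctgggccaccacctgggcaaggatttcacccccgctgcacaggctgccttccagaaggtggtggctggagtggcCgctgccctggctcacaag
Hbb-bt: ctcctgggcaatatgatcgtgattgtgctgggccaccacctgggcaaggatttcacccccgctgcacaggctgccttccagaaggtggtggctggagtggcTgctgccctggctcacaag
Hba-a1: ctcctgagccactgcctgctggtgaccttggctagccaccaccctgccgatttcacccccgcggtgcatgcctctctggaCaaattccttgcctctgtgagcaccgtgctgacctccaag
Hba-a2: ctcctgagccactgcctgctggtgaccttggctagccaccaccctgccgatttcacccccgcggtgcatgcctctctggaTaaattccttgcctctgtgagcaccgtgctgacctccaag

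The beta windows lie on the minus strand at chr7:103826674-103826793 for Hbb-bs and chr7:103812665-103812784 for Hbb-bt. The alpha windows lie on the plus strand at chr11:32284263-32284382 for Hba-a1 and chr11:32297080-32297199 for Hba-a2. Reads that align to several places were not assigned to a gene, and such alignments made up 18.6% to 23.6% of each library. Of the 75-base words in the transcripts of Hba-a1, 32.1% occur in no other gene, against 15.4% for Hba-a2, 48.5% for Hbb-bs and 43.4% for Hbb-bt. The corresponding share was 94.2% for Cygb, and no word of Ngb was shared with another gene. The hemoglobin counts are therefore lower bounds on hemoglobin RNA, and the split between 2 copies of a chain is uncertain.

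Cytoglobin was the only tested globin whose groups did not overlap. Cygb (ENSMUSG00000020810) lies on the minus strand of chromosome 11, from 116645595 to 116654313. Its level was 13.6, 13.8, 17.0 and 14.3 CPM in vehicle animals 1 to 4. In HPβCD animals 1 to 4 it was 34.1, 36.4, 44.1 and 31.1 CPM. The lowest HPβCD library was above the highest vehicle library, and the vehicle libraries lay within 1.25-fold of each other. Means were 14.7 ± 1.58 CPM (SD, n = 4) and 36.4 ± 5.56 CPM (SD, n = 4), a ratio of 2.48. The fitted log2 fold change was 1.31 with a standard error of 0.16. Of the 14736 genes tested, 79 (0.536%) had a log2 fold change at least as large. Groups that did not overlap, with HPβCD higher, were found for 8.85% of all tested genes, and in either direction for 16.8%. Since Cygb was selected for this difference, nothing is read from its place among those genes. Along 8.62% of its exon bases Cygb overlaps Prcd on the opposite strand. Prcd held 2 to 17 counts per library, against 242 to 823 for Cygb.

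**Figure D1:**
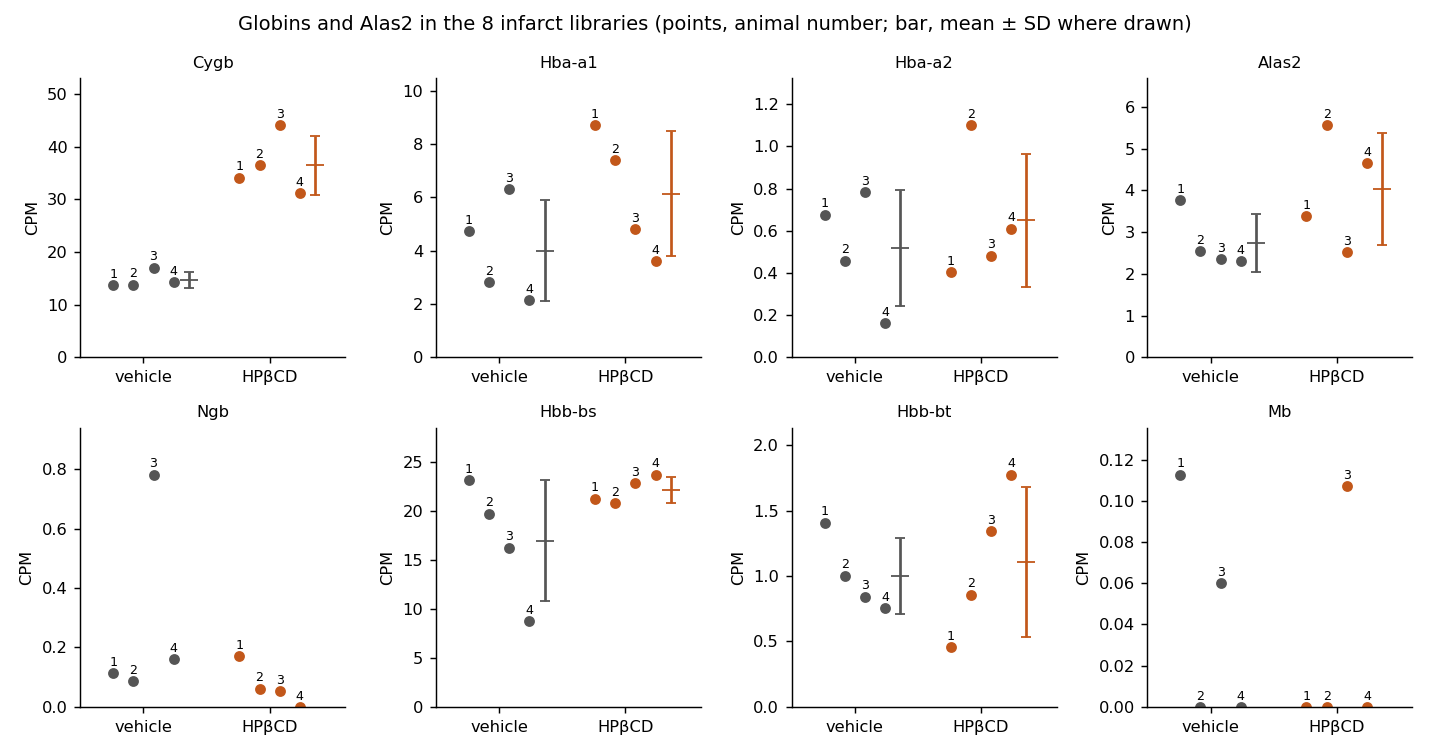
CPM of each member (y axis, from 0) by group (x axis), with 1 point per library numbered by animal and the mean ± SD where drawn. Cygb separates the groups, at 13.6 to 17.0 against 31.1 to 44.1 CPM, whereas the hemoglobin genes and Alas2 overlap and Ngb and Mb stay below 1 CPM.

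The level of Cygb was set beside genes of the cells that are known to make it. This list and those that follow were chosen with earlier results of these data known. Their shares beside those of all genes are therefore a description and no independent comparison. Among the 12 fibroblast genes, 11 were tested and all 11 had a positive log2 fold change, beside 45.9% of all genes tested. The median of these was 1.01, beside -0.05 over all genes tested. In the edgeR fit 2 of the 11 rose at an adjusted p under 0.05, Col1a1 and Col1a2, the chains of type I collagen, and over all genes 1.95% passed that threshold in either direction and 1.17% as higher in HPβCD. DESeq2 called 7 of the 11, 8 had an unadjusted p under 0.05 in edgeR and 8 were higher without overlap. The shares over all genes by these rules were 17.0%, 27.8% and 8.85%, and the counts for the lists that follow are to be read against them. Col1a2 averaged 919 ± 246 CPM in vehicle and 2531 ± 436 CPM in HPβCD (SD, n = 4 each), with a log2 fold change of 1.46 ± 0.24 (SE, adjusted p = 0.0462 in edgeR). The log2 fold change of Col1a1 was 1.61 ± 0.29 (SE, adjusted p = 0.0483 in edgeR). Dcn, the proteoglycan decorin, and Col3a1, a collagen of loose connective tissue, had log2 fold changes of 0.80 and 1.01 and did not pass (adjusted p = 0.129 and 0.201 in edgeR).

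Summed over the fibroblast list, the level was 4435, 7549, 3306 and 6760 CPM in vehicle animals 1 to 4. It was 11035, 11623, 12761 and 10695 CPM in HPβCD animals 1 to 4. In the HPβCD group the libraries fell in the same order for Cygb and for the fibroblast sum, with animal 3 highest and animal 4 lowest. The vehicle libraries did not share an order. Vehicle animal 3 had the lowest fibroblast sum and the highest Cygb of its group, and the sum ranged 2.28-fold among vehicle animals where Cygb ranged 1.25-fold. With vehicle animals 1 and 3 left out together, the median log2 fold change of the fibroblast genes was 0.55 and that of Cygb was 1.39.

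On the log2 scale, the level of Cygb minus the mean of the 11 fibroblast genes was -3.78 ± 0.71 in vehicle and -3.63 ± 0.10 in HPβCD (SD, n = 4 each). These differences ran from -4.34 to -2.77 in vehicle and from -3.74 to -3.50 in HPβCD, so that relative to fibroblast genes the groups overlapped. The overlap came from vehicle animal 3, the library with the most neuronal RNA. Without it, an omission made after its value was seen, the vehicle values ended at -3.80 and averaged -4.11 ± 0.28 (SD, n = 3), below all HPβCD values, and the difference of the means, HPβCD minus vehicle, went from 0.15 to 0.48. Against the 10 mural cell genes, which mark pericytes and smooth muscle, the difference ran from -1.55 to -0.89 in vehicle and from -0.81 to -0.02 in HPβCD. There the groups did not overlap. Cygb was selected for its rise, so these differences reuse the selected values and are a description without a test.

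All 10 mural genes were tested, all had a positive log2 fold change, beside 45.9% of all genes, and their median was 0.39. In edgeR 1 was called, beside 1.17% of all genes called as higher. DESeq2 called 2, an unadjusted p under 0.05 was found for 3, and 3 were higher without overlap. Pdgfrb, the PDGF receptor of pericytes and fibroblasts, rose from 114 ± 23.3 to 259 ± 69.4 CPM (log2 fold change 1.18, adjusted p = 0.0483 in edgeR). The pericyte gene Rgs5 was at 244 ± 61.0 and 308 ± 62.4 CPM and Vtn, encoding vitronectin, at 118 ± 32.2 and 150 ± 42.1 CPM (adjusted p = 0.375 and 0.397 in edgeR). Of the 8 arachnoid and meningeal genes, 4 were higher, 4 were lower (median log2 fold change 0.10) and none passed in edgeR, with 3 at an unadjusted p under 0.05 and 3 called by DESeq2. Ptgds, the prostaglandin D synthase of the leptomeninges, was at 4421 ± 498 and 5734 ± 538 CPM. The transporter gene Slc47a1 was at 121 ± 33.6 and 232 ± 85.3 CPM, and Tbx18, a factor of mural and meningeal cells, at 75.5 ± 34.5 and 101 ± 18.7 CPM. Ptgds, Slc47a1 and Tbx18 were all among the 4 higher genes. Of the 4 lower genes, Slc6a13 was picked after its value was seen. It was at 15.8 ± 3.16 and 8.82 ± 0.65 CPM without overlap (log2 fold change -0.84, adjusted p = 0.0502 in edgeR). Over the list, groups did not overlap for 2 genes that were higher and for 1 that was lower.

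**Figure D2:**
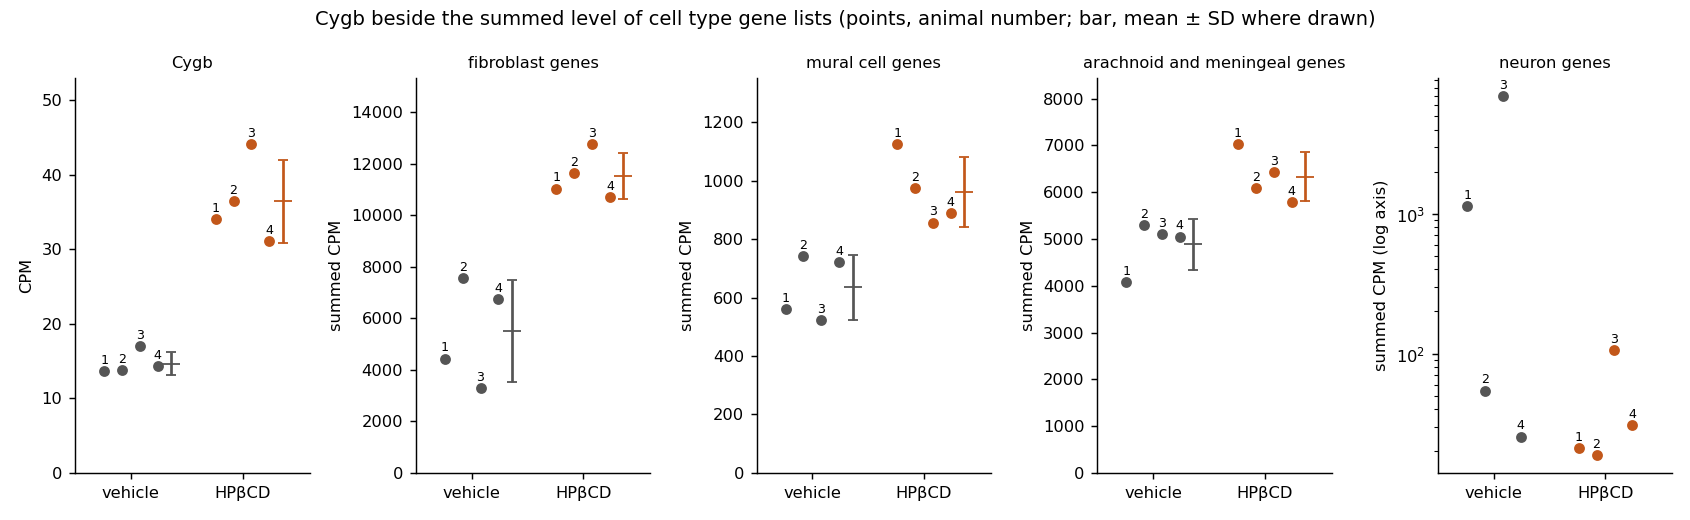
CPM of Cygb and summed CPM of 4 gene lists (y axes, the neuron panel on a log axis) by group (x axis), with points numbered by animal and the mean ± SD where drawn. Cygb and the fibroblast sum are both higher in all HPβCD libraries, whereas neuron genes are high in vehicle animals 1 and 3 only, at 1128 and 6919 CPM.

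Neuron genes followed another pattern. Their sum was 1128, 54.3, 6919 and 25.4 CPM in vehicle animals 1 to 4 and 21.1, 18.8, 106 and 30.6 CPM in HPβCD animals 1 to 4. Vehicle animals 1 and 3 thus held far more neuronal RNA than the other libraries. Snap25, a protein of synaptic vesicle release, was at 334 and 3003 CPM in these animals, against 0.918 to 29.9 CPM elsewhere. Cygb differed little between these libraries and the remaining vehicle animals, at 13.6 and 17.0 against 13.8 and 14.3 CPM. The median log2 fold change of the neuron genes was -5.85, and 0.055 with vehicle animals 1 and 3 left out. All 9 tested neuron genes were lower in HPβCD and none passed in edgeR, although all 9 had an unadjusted p under 0.05, beside 27.8% of all genes, and DESeq2 called 8, beside 17.0%. The edgeR adjusted p was 0.134 for Snap25, 0.132 for Syt1 and 0.114 for Nrgn. All 7 astrocyte genes were also lower (median log2 fold change -1.36), none of them called by edgeR, with 5 at an unadjusted p under 0.05 and 4 called by DESeq2. Slc1a2, the astrocyte glutamate transporter, ranged from 683 to 7382 CPM in vehicle and from 80.2 to 806 CPM in HPβCD. Gfap, an astrocyte filament, averaged 822 and 371 CPM and the water channel gene Aqp4 550 and 161 CPM.

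Neuroglobin was close to the limit of detection. Ngb (chromosome 12, minus strand, 87097531 to 87102539) had 2, 3, 13 and 3 counts in vehicle animals 1 to 4 and 3, 1, 1 and 0 counts in HPβCD animals 1 to 4. The library with 13 counts was vehicle animal 3, which also had the highest neuron sum. The 0 counts of HPβCD animal 4 allow a level of up to 0.166 CPM. Ngb did not pass the filter on low counts. Fitted without a filter, its log2 fold change was -1.82 ± 1.02 (SE, adjusted p = 0.369 in edgeR). With 21 counts in all vehicle libraries and 5 in all HPβCD libraries, and 13 of the 21 from a single animal, a difference was not detectable at this depth.

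Myoglobin was nearly absent. Mb (chromosome 15, minus strand, 77015487 to 77050670) had 2, 0, 1 and 0 counts in vehicle animals 1 to 4 and 0, 0, 2 and 0 counts in HPβCD animals 1 to 4. No library exceeded 2 counts, under the 3 counts that a value of 0 cannot exclude, and no fold is given. Of its exon bases, 31.9% overlap genes on the opposite strand. Of 12 muscle genes 3 passed the filter on low counts, and the summed level of the list was 2.63 to 12.3 CPM in vehicle and 3.27 to 4.71 CPM in HPβCD. Ckm, muscle creatine kinase, was at 0.12 CPM in vehicle animal 3 and at 0 elsewhere, and Tnnc2 was at 0 in every library. Acta1 did not pass that filter, yet its vehicle mean of 2.40 ± 3.66 CPM (SD, n = 4) exceeded that of Tnni2. Its peak was 7.76 CPM, in vehicle animal 3, whereas no HPβCD library held more than 0.107 CPM of it. Among the 3 tested genes Tnni2 had the highest mean, at 1.06 ± 0.33 and 1.82 ± 0.42 CPM. Next came Actn3 at 0.563 ± 0.089 and 1.18 ± 0.65 CPM and Mylpf at 0.645 ± 0.19 and 0.589 ± 0.39 CPM (SD, n = 4). None of the 3 passed in edgeR, 2 had an unadjusted p under 0.05 and DESeq2 called 0.

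Hemoglobin transcripts were present in every library at a low level. Together the 4 adult chains took 0.00320%, 0.00254%, 0.00228% and 0.00124% of gene counts in vehicle animals 1 to 4. In HPβCD animals 1 to 4 the shares were 0.00302%, 0.00286%, 0.00282% and 0.00296%. The HPβCD libraries were nearly level and lay inside the vehicle range, and vehicle animal 4 was lowest, with a 95% Wilson interval of 0.00109% to 0.00142% that lay below those of all other libraries. The interval covers counting error only. On the CPM scale the sum was 22.5 ± 7.62 in vehicle and 30.0 ± 0.61 in HPβCD (SD, n = 4 each), with no test since it is a sum over members. On that scale HPβCD animals 1 and 2, at 30.8 and 30.1 CPM, were above the highest vehicle library, at 29.9 CPM. The difference of the mean shares, HPβCD minus vehicle, was 0.000606 percentage points and fell to 0.000248 without vehicle animal 4.

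The main chain was Hbb-bs (chromosome 7, minus strand, 103826534 to 103828096). It was measured at 23.1, 19.7, 16.2 and 8.75 CPM in vehicle animals 1 to 4 and at 21.2, 20.8, 22.8 and 23.7 CPM in HPβCD animals 1 to 4. The groups overlapped, with a log2 fold change of 0.38 ± 0.27 (SE, adjusted p = 0.394 in edgeR). Its neighbour Hbb-bt (103812524 to 103813996, same strand) was at 1.41, 1.00, 0.842 and 0.752 CPM in vehicle and at 0.459, 0.857, 1.34 and 1.77 CPM in HPβCD. The HPβCD libraries extended beyond the vehicle range on both sides, and the log2 fold change was 0.15 ± 0.42 (SE, adjusted p = 0.858 in edgeR).

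Hba-a1 (chromosome 11, plus strand, 32283511 to 32284465) was the leading alpha gene. Its level was 4.73, 2.81, 6.31 and 2.15 CPM in vehicle animals 1 to 4 and 8.73, 7.41, 4.83 and 3.60 CPM in HPβCD animals 1 to 4. HPβCD animals 1 and 2 were above the vehicle range, but animals 3 and 4 were inside it. The log2 fold change was 0.62 ± 0.40 (SE, adjusted p = 0.357 in edgeR). Hba-a2 (32296489 to 32297298, same strand) held 3 to 18 counts per library, at 0.519 ± 0.27 and 0.649 ± 0.31 CPM (SD, n = 4). Its log2 fold change was 0.32 ± 0.51 (SE, adjusted p = 0.727 in edgeR).

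Alas2 (chromosome X, plus strand, 150547375 to 150570638) makes the heme that red cell precursors place in hemoglobin. It was at 3.77, 2.55, 2.35 and 2.31 CPM in vehicle animals 1 to 4 and at 3.39, 5.57, 2.52 and 4.66 CPM in HPβCD animals 1 to 4. HPβCD animals 2 and 4 exceeded all vehicle libraries and the other two did not. The log2 fold change was 0.55 ± 0.30 (SE, adjusted p = 0.271 in edgeR). Along 15.5% of its exon bases Alas2 overlaps genes on the opposite strand, chiefly Apex2, which was at 4.99 to 9.17 CPM. The strand setting of the counting is not stated, so reads of Alas2 and Apex2 in that stretch cannot be told apart.

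Among the 5 tested members other than Cygb, all 5 had a positive log2 fold change, beside 45.9% of all genes. The number called by edgeR was 0, beside 1.95% of all genes, a share at which 0 of 5 is no result about the members. None of the 5 had an unadjusted p under 0.05, beside 27.8% of all genes, and none had groups that did not overlap, beside 16.8%. DESeq2 also called 0, where it called 17.0% of the genes to which it gave an adjusted p. Limma-voom with sample quality weights called 1 of the 5, Hba-a1 (log2 fold change 1.31, adjusted p = 0.0216), and called 22.1% of all genes. The adjusted p of Hba-a1 over the alternatives ran from 0.0216 to 0.641.

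Composition within hemoglobin does not depend on library scaling, although the alpha genes have the smaller share of words of their own. Beta counts exceeded alpha counts in every library, by 4.53, 6.34, 2.41 and 4.12 times in vehicle animals 1 to 4 and by 2.38, 2.54, 4.55 and 6.04 times in HPβCD animals 1 to 4. As a log2 ratio of alpha to beta, this was -2.04 ± 0.58 in vehicle and -1.84 ± 0.65 in HPβCD (SD, n = 4 each; exact two-sided permutation test, p = 0.743). Both groups covered nearly the same range. The smallest p that 4 animals against 4 can give is 0.0286.

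Hbb-bt supplied 5.75%, 4.84%, 4.93% and 7.91% of beta counts in vehicle animals 1 to 4 and 2.12%, 3.97%, 5.56% and 6.97% in HPβCD animals 1 to 4. The means, 5.86 ± 1.43% and 4.65 ± 2.09%, did not differ beyond the spread (exact two-sided permutation test, p = 0.371, n = 4 each). HPβCD animal 1 was lowest, with a 95% Wilson interval of 1.08% to 4.12%. Hba-a1 supplied 88.9 ± 3.03% of alpha counts in vehicle and 89.8 ± 4.50% in HPβCD (SD, n = 4 each; exact two-sided permutation test, p = 0.771). These shares describe uniquely assigned reads, and the copies differ in how much of their transcript can be assigned.

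**Figure D3:**
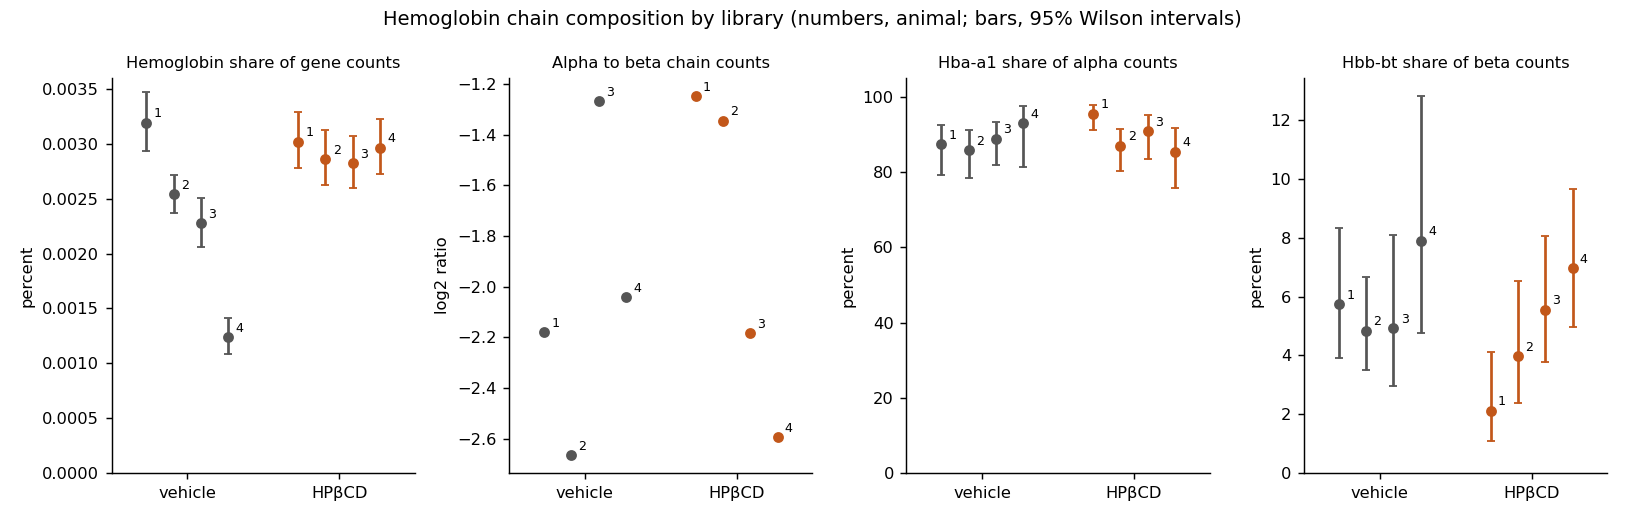
Hemoglobin share of gene counts, log2 ratio of alpha to beta counts, Hba-a1 share of alpha counts and Hbb-bt share of beta counts (y axes) by group (x axis), with points numbered by animal and bars for 95% Wilson intervals where drawn. The groups overlap in all 4 panels, and vehicle animal 4 has the lowest hemoglobin share, 0.00124%.

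Levels were compared between genes only per kilobase of exon. In vehicle libraries Hbb-bs led with 22.1 ± 7.99 CPM per kb, followed by Cygb with 6.30 ± 0.68, Hba-a1 with 4.93 ± 2.33, Hbb-bt with 1.42 ± 0.41, Alas2 with 1.14 ± 0.29 and Hba-a2 with 0.779 ± 0.41 CPM per kb (SD, n = 4). In HPβCD libraries the levels were 28.8 ± 1.76 for Hbb-bs, 15.6 ± 2.39 for Cygb, 7.56 ± 2.88 for Hba-a1, 1.68 ± 0.56 for Alas2, 1.58 ± 0.81 for Hbb-bt and 0.973 ± 0.47 CPM per kb for Hba-a2 (SD, n = 4). Hbb-bs stood above Cygb without overlap in both groups. Cygb overlapped Hba-a1 in vehicle but not in HPβCD, and of Hbb-bt, Alas2 and Hba-a2 each overlapped the next in both groups. Scaled instead to transcript words that occur in no other gene, the order of Cygb and Hba-a1 turned. Per 1000 such words, Hba-a1 was at 17.0 ± 8.02 and 26.0 ± 9.92 CPM and Cygb at 6.90 ± 0.74 and 17.1 ± 2.62 CPM in vehicle and HPβCD (SD, n = 4). Hba-a1 and Cygb did not overlap on that scale in vehicle, and they overlapped in HPβCD. Hba-a2, the lowest of the 6 per kb, also moved above Hbb-bt and Alas2, at 5.71 against 3.67 and 1.27 CPM per 1000 words in vehicle and 7.13 against 4.06 and 1.87 in HPβCD. It overlapped Hbb-bt in both groups and did not overlap Alas2 in either.

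The remaining globins were scarce. Adgb, which encodes androglobin, had 18 to 73 counts per library, at 2.18 ± 0.83 and 1.75 ± 0.28 CPM (log2 fold change -0.32 ± 0.33, adjusted p = 0.576 in edgeR). Hbq1a and Hbq1b, the theta globins, had 2 counts each, all in vehicle animal 3, and the embryonic chain gene Hbb-y had 1 count in HPβCD animal 4. The embryonic chain genes Hba-x and Hbb-bh1, and Hbb-bh2, had 0 counts in all 8 libraries, which allows at most 0.0911 to 0.180 CPM per library. Of the 14 genes listed for the family, 11 had at least 1 count.

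Genes of red cell precursors were compared with hemoglobin and Alas2. Of the 20 listed, 19 were among the identifiers, 8 passed the filter (median log2 fold change -0.605, and -0.022 without vehicle animals 1 and 3) and 0 were called by edgeR, with 3 at an unadjusted p under 0.05 and 3 called by DESeq2. The highest of the tested, Tmcc2 and Sptb, reached 174 and 184 CPM in vehicle animal 3 and 59.8 and 59.7 CPM in vehicle animal 1, the libraries with the most neuronal RNA, and stayed at 12.4 to 14.3 and 1.77 to 3.27 CPM in the others. Bpgm, which regulates the oxygen affinity of hemoglobin, was at 23.4 ± 6.53 and 18.1 ± 2.71 CPM (adjusted p = 0.298 in edgeR).

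Genes more restricted to red cell precursors were low and uneven, and the following were picked after their values were seen. Slc4a1, the anion exchanger of red cells, was at 2.14, 0.0859, 0.361 and 0.0537 CPM in vehicle animals 1 to 4 and 1.26, 1.90, 5.47 and 0.998 CPM in HPβCD animals 1 to 4 (log2 fold change 1.91, adjusted p = 0.282 in edgeR). Rhag reached 1.77 CPM in HPβCD animal 3 and at most 0.277 CPM elsewhere. The neutrophil precursor gene Ngp showed 8.85 and 5.07 CPM in HPβCD animal 3 and vehicle animal 1, against 0 to 1.95 CPM in the other libraries. Hbb-bs in these animals, at 22.8 and 23.1 CPM, was below its 23.7 CPM in HPβCD animal 4, where Slc4a1 was at 0.998 CPM. Slc4a1 counts per 100 beta chain counts thus ranged from 0.415 in vehicle animal 2 to 22.7 in HPβCD animal 3, whereas Alas2 counts per 100 beta counts ranged only from 10.4 to 25.8. Without vehicle animal 1 and HPβCD animal 3, which were set aside after these values were seen, the log2 fold change of Cygb was 1.17. In that setting edgeR called 0 genes in all, so the absence of calls among the other members is no result about them.

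**Figure D4:**
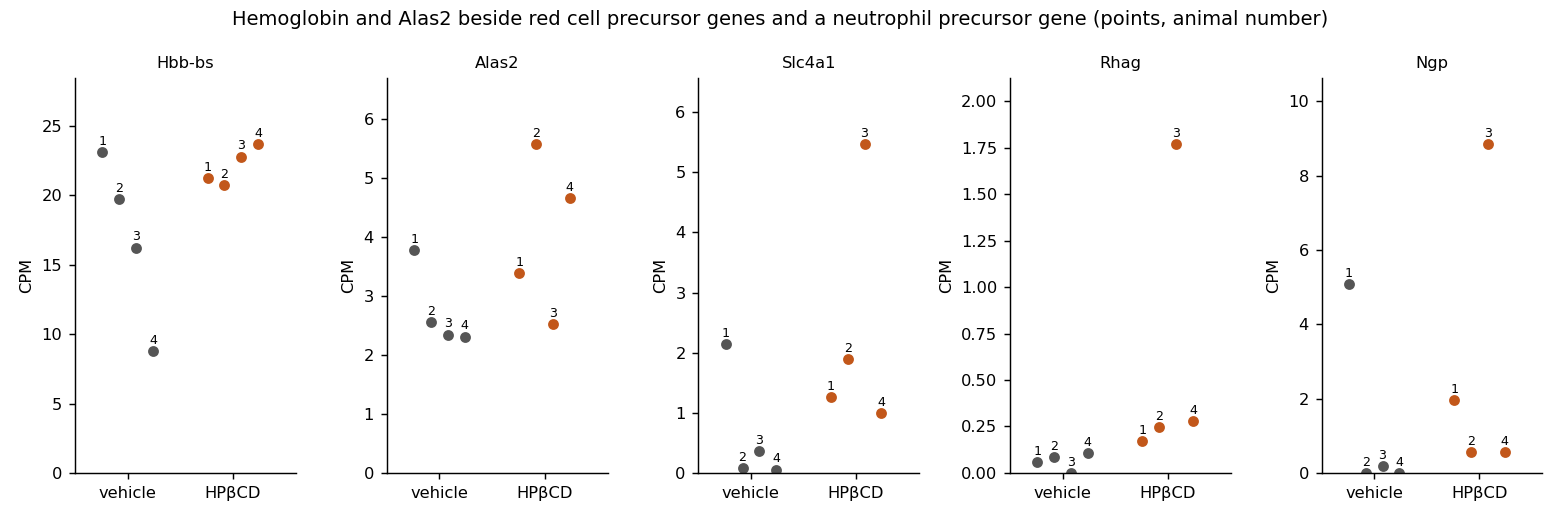
CPM (y axes, from 0) of Hbb-bs, Alas2, the red cell precursor genes Slc4a1 and Rhag and the neutrophil precursor gene Ngp by group (x axis), with points numbered by animal. HPβCD animal 3 is highest for Slc4a1, Rhag and Ngp, at 5.47, 1.77 and 8.85 CPM, but not for Hbb-bs or Alas2.

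Other blood cells were also looked for. All 4 tested platelet genes were lower in HPβCD (median log2 fold change -0.96) and none passed in edgeR, with 2 at an unadjusted p under 0.05 and 1 called by DESeq2. Pf4 was at 1.63 ± 0.60 and 0.567 ± 0.33 CPM and Ppbp at 4.22 ± 4.76 and 2.61 ± 1.63 CPM (SD, n = 4). Itga2b had a log2 fold change of -0.58 ± 0.28 (SE, adjusted p = 0.222 in edgeR). Of the neutrophil list 2 genes were tested and edgeR called 0, with 0 at an unadjusted p under 0.05 and 0 called by DESeq2. S100a8 was at 8.45 ± 4.19 and 7.60 ± 3.90 CPM and S100a9 at 3.13 ± 0.75 and 4.17 ± 2.52 CPM (SD, n = 4).

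Heme for all globins is made by a common pathway. All 9 of its enzymes were tested, 6 were higher and 3 lower, and the median log2 fold change was 0.30. None passed in edgeR. For 3 the unadjusted p was under 0.05 and DESeq2 called 1, near or below the 27.8% and 17.0% of all genes. Higher without overlap were 3 of the 9, beside 8.85% of all genes. Alas1, the enzyme that starts heme synthesis outside red cells, was at 103 ± 15.9 and 169 ± 35.0 CPM, without overlap (log2 fold change 0.71, adjusted p = 0.0700 in edgeR). Fech, which inserts the iron, was at 53.4 ± 3.52 and 67.1 ± 8.12 CPM, also without overlap (adjusted p = 0.146 in edgeR). Cpox was at 32.4 ± 4.21 and 28.4 ± 2.75 CPM (adjusted p = 0.431 in edgeR).

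Genes that clear hemoglobin and heme included 3 that rose. Of 11 listed, 10 were tested, 9 were higher, and the median log2 fold change was 0.60. Calls as higher in edgeR made up 1.17% of all genes. In the list 6 genes had an unadjusted p under 0.05, DESeq2 called 5 and 5 were higher without overlap. Blvrb, which reduces biliverdin and also flavins, rose from 19.7 ± 1.24 to 33.1 ± 0.52 CPM (log2 fold change 0.75 ± 0.12, adjusted p = 0.0427 in edgeR). Ftl1, the light chain of the iron store ferritin, rose from 1133 ± 154 to 2543 ± 627 CPM (log2 fold change 1.16 ± 0.22, adjusted p = 0.0483 in edgeR). Lrp1, an endocytic receptor that takes up heme bound to hemopexin among many other ligands, rose from 785 ± 171 to 1724 ± 367 CPM (log2 fold change 1.13 ± 0.23, adjusted p = 0.0499 in edgeR). The ferritin heavy chain gene Fth1 was at 2965 ± 733 and 5534 ± 1660 CPM and did not pass (adjusted p = 0.0881 in edgeR). Cd163 and Hmox1 were added after their values were seen, because they act on hemoglobin most directly. Cd163, the macrophage receptor for hemoglobin bound to haptoglobin, was at 4.45, 11.2, 6.91 and 6.02 CPM in vehicle and 3.33, 5.39, 2.79 and 3.16 CPM in HPβCD (adjusted p = 0.108 in edgeR). Hmox1, which degrades heme, was at 47.6, 98.0, 64.2 and 101 CPM in vehicle and 99.0, 102, 121 and 117 CPM in HPβCD (adjusted p = 0.210 in edgeR).

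Globins that handle nitric oxide need reductases to return their iron to the ferrous state. Of 12 nitric oxide and reductase genes, 11 were tested, 7 were higher, 4 were lower and the median log2 fold change was 0.42. An unadjusted p under 0.05 was found for 6, DESeq2 called 4 and 3 were higher without overlap. In edgeR 1 was called, beside 1.17% of all genes called as higher. That gene was Por, the reductase that feeds cytochrome P450 enzymes, which rose from 250 ± 48.6 to 455 ± 42.0 CPM (log2 fold change 0.86 ± 0.17, adjusted p = 0.0483 in edgeR). Cyb5r3, a cytochrome b5 reductase that reduces methemoglobin and Cygb, was at 165 ± 40.2 and 365 ± 101 CPM without overlap and did not pass (log2 fold change 1.14 ± 0.25, adjusted p = 0.0566 in edgeR). Cyb5b, a cytochrome b5, was at 213 ± 10.3 and 240 ± 41.8 CPM (adjusted p = 0.516 in edgeR).

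Cygb is known as a gene that responds to low oxygen, and 14 such genes were listed beside it. Of 13 tested, 7 were higher and 6 lower, the median log2 fold change was 0.00, and edgeR called 0. An unadjusted p under 0.05 was found for 4 and DESeq2 called 2, close to the 27.8% and 17.0% of all genes. Groups did not overlap for 3 genes that were higher, beside 8.85% of all genes, and for 1 that was lower. In either direction the share over all genes was 16.8%. Epas1, the oxygen-regulated factor HIF-2 alpha, was at 545 ± 83.6 and 756 ± 63.2 CPM without overlap (adjusted p = 0.112 in edgeR). Hif1a was at 242 ± 72.9 and 244 ± 27.1 CPM, and the glucose transporter gene Slc2a1 at 183 ± 36.7 and 175 ± 58.7 CPM (adjusted p = 0.992 and 0.889 in edgeR).

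**Figure D5:**
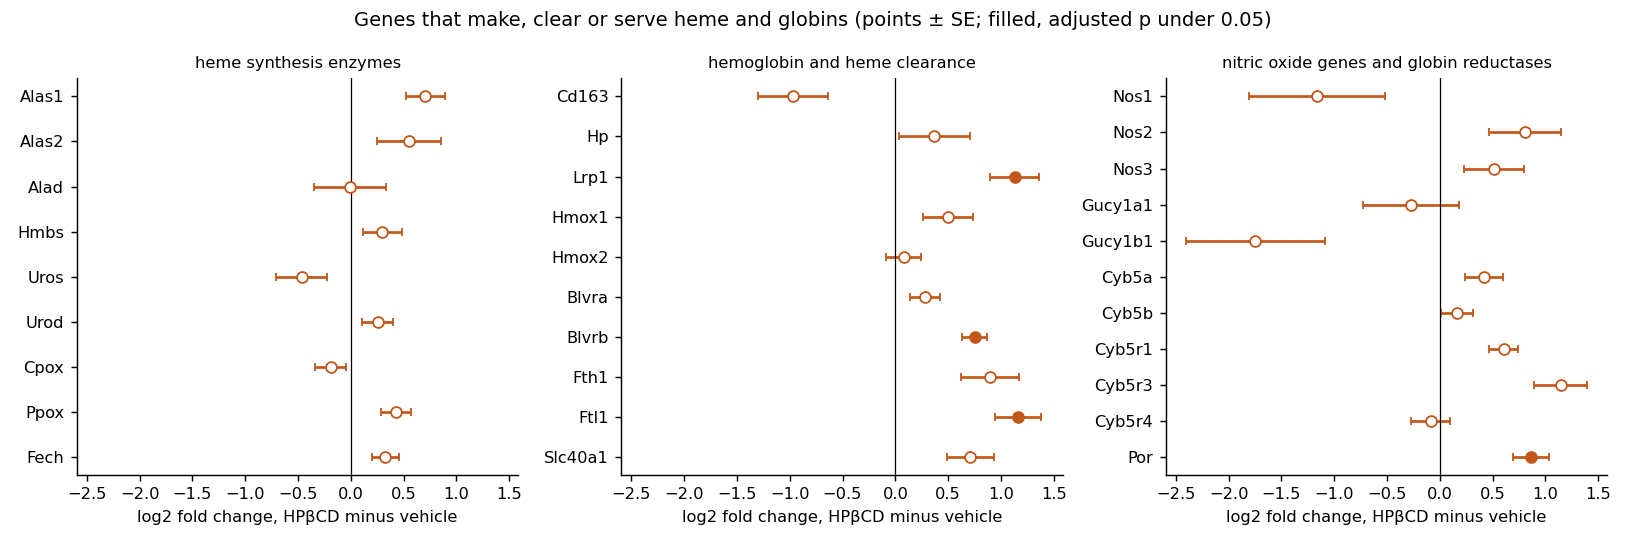
Log2 fold change, HPβCD minus vehicle, with its standard error (x axis) for each tested gene (y axis) of 3 lists, filled where the edgeR adjusted p was under 0.05. Lrp1, Blvrb, Ftl1 and Por are filled, and all enzymes of heme synthesis are open.

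The calls for Col1a1, Col1a2, Pdgfrb, Blvrb, Ftl1, Lrp1 and Por were close to the threshold. All 7 genes kept a positive log2 fold change under all 17 alternatives, but each was called under 7 to 9 of them. Each call ended when vehicle animal 1, vehicle animal 4, HPβCD animal 1, HPβCD animal 2 or HPβCD animal 3 was left out, and with library totals alone. In these settings edgeR called only 0 to 11 genes in all, beside 287 in the main fit, so these losses are not particular to the 7 genes. Over the alternatives the highest adjusted p of a gene was 0.23 to 0.247. The call of Lrp1 also ended without vehicle animal 2, and those of Por, Pdgfrb and Ftl1 without vehicle animals 1 and 3 together. Por was also not called with no filter on low counts. All 7 lost their call without vehicle animal 1 and HPβCD animal 3 together, where edgeR called 0 genes in all.

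The genes most like Cygb across the 8 libraries were Dpp7, Cant1, Blvrb, Mlana and Slc36a1, with Pearson correlations of log2 CPM of 0.982, 0.977, 0.976, 0.975 and 0.973 among the 13977 tested genes that averaged 1 CPM or more. Dpp7, a lysosomal dipeptidyl peptidase, averaged 73.0 ± 6.58 CPM in vehicle and 178 ± 36.4 CPM in HPβCD. Mlana, a melanosome protein gene, averaged 0.898 ± 0.23 and 8.11 ± 1.91 CPM (SD, n = 4 each). Within the fibroblast list, correlations with Cygb ran from 0.36 to 0.90 with a median of 0.71, and within the mural list from 0.30 to 0.86 with a median of 0.55. The median was 0.744 for genes that clear hemoglobin and heme and 0.665 for nitric oxide and reductase genes. A high median was thus not particular to the fibroblast list. Neuron genes lay between -0.52 and -0.31. The 8 libraries fall into 2 treatment groups, and no test is given for these values.

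Summed hemoglobin shared its pattern with other genes. The closest were Ddx31, Pcdhgb5, Abcc10, Ppargc1b and Dnah8, with correlations of 0.946, 0.888, 0.879, 0.846 and 0.838 over the 8 libraries. Median correlations with hemoglobin were 0.35 for mural genes, 0.25 for fibroblast genes, 0.06 for neuron genes and 0.02 for the 8 tested red cell precursor genes. Among the last, Slc4a1 had 0.75, a gene picked after its value was seen, whereas Sptb and Tmcc2, which were highest in the libraries with neuronal RNA, had 0.02 and 0.03. The correlation of Alas2 was 0.57. No test is given for these either.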

How the data were processed

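The values the authors deposited are raw gene counts, 1 table per animal. Per their methods, polyadenylated RNA was made into strand-specific libraries, sequenced as paired-end reads of 75 bases, trimmed with Trimmomatic 0.32, aligned to GRCm38 with STAR 2.5.2b and counted with htseq-count. The strand setting, counter version and annotation release are not given in the sources used here. The 5 lines for reads without a gene, 26.6% to 36.6% of each library, were left out, most of them alignments to several places, so near-identical genes are undercounted.

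The sample labels gave the group and number of each animal and no batch. The p-values of the fits weigh the difference between the groups against the variation among animals within a group. The exact p-values weigh it against all assignments of these 8 animals to the groups. All libraries differed from each other by more than sampling noise. Symbols were matched for 45143 of 46078 identifiers, and coordinates and lengths are from GENCODE M21.

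Counts were tested with edgeR 4.0.16 in R 4.3.3 (robust quasi-likelihood F test, TMM, filterByExpr, no covariate), with Benjamini-Hochberg adjustment over 14736 genes and a threshold of 0.05. The design named a likeness to Mb, which was not computed because Mb has 5 counts in all. DESeq2 1.42.0, the test the study used, and limma 3.58.1 were alternatives, as were scaling by size factors or totals alone, no filter, hemoglobin counts left out, the animal number as a block, leaving out each animal and leaving out pairs of animals. A prior count of 2 was added for log2 CPM. The procedure was tested on simulated data. Hemoglobin compositions were compared with scipy 1.17.1 by exact permutation over 70 assignments. Wilson intervals (95%) cover counting error alone.

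The members and the 14 gene lists were chosen with earlier results of these data known. From each list other than the globins, the 3 tested genes with the highest mean CPM and all called genes are named, with the 5 genes most like Cygb and like summed hemoglobin, unless stated otherwise.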

Additional observations from a re-analysis of the deposited data

How the results depend on the processing

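Cygb kept its direction under all 17 alternatives, with log2 fold changes of 1.17 to 1.39. Over all genes edgeR called 287. The count was 2899 with DESeq2, 3253 with limma-voom, 11 with library totals alone and 0 without vehicle animal 1 and HPβCD animal 3 together. Leaving out 1 animal gave 0 to 629 calls, with 0 when vehicle 1, vehicle 4, HPβCD 2 or HPβCD 3 was absent, 4 without HPβCD animal 1 and 556 and 629 without vehicle animals 2 and 3. In the settings with 0 calls, 2397 to 4216 genes had an unadjusted p under 0.05, beside 4094 with all animals. The cause was not tested. The number of other members called stayed at 0 except with limma-voom, where it was 1. Where edgeR called 0 genes in all, that number could only be 0.

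The log2 fold change of Hbb-bt turned to -0.16 with limma-voom and to -0.17 without HPβCD animal 4, and that of Hba-a2 to -0.041 without HPβCD animal 2. Leaving out 1 animal, they ranged from -0.17 to 0.406 for Hbb-bt and from -0.041 to 0.572 for Hba-a2. Leaving out 1 animal moved the difference in the alpha to beta log2 ratio, HPβCD minus vehicle, between -0.014 and 0.45, below 0 without vehicle animal 2 or HPβCD animal 1. For the Hba-a1 share of alpha counts the range was -1.04 to 2.32 percentage points, below 0 without the same animals. For the Hbb-bt share of beta counts it was -1.98 to -0.36, with these ends without HPβCD animals 4 and 1. Hbb-bs, Hba-a1 and Alas2 kept a positive log2 fold change throughout. With 3 animals against 4 the smallest exact p is 0.0571.

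Animal numbers did not pair the libraries. Correlations of same-numbered deviations were -0.26, 0.24, 0.33 and 0.10. A replicate block left 9 calls over all genes, 0 among the members other than Cygb and none of the 7 list genes called without it. Depth limits Ngb and Mb, which had 26 and 5 counts in all.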
